A study of Arabidopsis thaliana with 6 samples.

Results

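The transcripts described here come from genes of the Arabidopsis thaliana plastid genome that serve gene expression and housekeeping: the plastid-encoded ribosomal proteins, the subunits of the plastid RNA polymerase, and single genes for splicing, proteolysis, lipid synthesis and assembly of the photosynthetic apparatus. They were chosen as the probe sets annotated to 1 gene with a plastid locus tag, leaving out the genes of both photosystems, the cytochrome b6f complex, ATP synthase and the NDH complex (psa, psb, pet, atp, ndh) and rbcL. This gave 26 probe sets of the 22810 on the array, 15 for ribosomal proteins, 4 for polymerase subunits and 7 for other functions. Each of these 26 genes had 1 probe set, among 13356 genes that a probe set named alone. The plastid genome had 34 gene symbols of this kind in the gene table used, and the other 8 are not members.

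RNA was taken from whole rosettes of a double mutant and of the wild type and hybridised to Affymetrix ATH1 arrays, 3 arrays per genotype. The double mutant, labelled APK1/APK2, came from a cross of salk_053427 with salk_093072, both insertion lines, and disrupts genes of plastid APS kinases, which make the sulfate donor PAPS. The wild type was Col-0. In both genotypes plants grew for 35 days in soil under 10 h of light a day (22 °C, 60% humidity), each sample was a separate pool of 10 rosettes, and harvest was 4 h after the lights came on. The mutant is 1 cross and was not set against single mutants or a complemented line here. No probe set named APK1 or APK2 alone, so the labels were not checked against the disrupted genes.

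Arabidopsis chloroplasts keep a small genome of bacterial descent with its own transcription and translation. A bacterial-type RNA polymerase, whose core subunits are encoded by rpoA, rpoB, rpoC1 and rpoC2 in the plastid itself, transcribes most photosynthesis genes together with sigma factors imported from the cytosol. A second, phage-type polymerase encoded in the nucleus transcribes others, among them accD and the rpoB operon. Plastid ribosomes are built from proteins of both genomes, and many plastid genes are transcribed together as long RNAs, so that a probe set can read any transcript that covers its gene.

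The values are signals, 1 per probe set and array in arbitrary units, after the authors' scaling of each array to an equal mean. Signals of different probe sets depend on their probes and do not rank transcripts by amount. The labelling kit starts from the poly(A) tail, which in plastids is mostly short-lived and marks RNA for decay. The signal of a plastid gene therefore depends on how its RNA was primed as well as on its amount. The median signal of the arrays lay between 32.5 and 34.5, and the log2 signals of tested probe sets had pairwise correlations of 0.974 to 0.983 among mutant arrays, 0.981 to 0.986 among wild-type arrays and 0.950 to 0.969 across genotypes. Of 8 leaf markers 2 had a named probe set. RCA (Rubisco activase) had 6277 ± 729 in the double mutant and 6216 ± 916 in the wild type (SD, n = 3 each), and SBPASE of the Calvin cycle was lower, with 2412 ± 214 in the double mutant and 3023 ± 167 in the wild type (adjusted p = 0.0245). Their summed signal was 9112, 9296 and 7658 in the double mutant, against 10481, 8687 and 8547 in the wild type, and the part of leaf composition in the results was not tested. The senescence regulator WRKY53 had 106 ± 19.7 in the double mutant and 73.8 ± 26.5 in the wild type (adjusted p = 0.119), and the root hair genes EXPA7 and EXPA18 lay under every array's 40th percentile.

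Most of these plastid transcripts were lower in the double mutant. Among 24 tested members, 14 fell and 0 rose at an adjusted p of 0.05. Of all 13848 tested probe sets 11.3% passed, 5.55% lower and 5.79% higher in the double mutant. In all, 23 of 24 changes were negative, against 54.1% of all tested probe sets, with a median log2 change of −0.44, or 73.8% of the wild-type level, against a median of −0.02 over all tested probe sets. The falls were moderate. They ranged from rps4, for a small-subunit protein, at 77.7% of the wild-type level to rpoC2, a polymerase subunit, at 62.9%. For 15 of the 24 members all mutant arrays lay below all wild-type arrays, a pattern seen in 15.7% of all tested probe sets, and for 0 members they lay above, against 13% of all tested probe sets. In pooled rosettes, fewer cells of a type and less of a transcript per cell cannot be told apart.

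The size of this count depended on single arrays and on how the variance was estimated. Leaving out wild-type replicate 1 gave 8 members, leaving out mutant replicate 2 gave 9, and leaving out mutant replicate 1 gave 17. When the expected variance was held equal at all signal levels, 7 were called. The 7 genes called whichever array was left out were rpl16, rpl20, rpl22, rpl36, rps19, rpoC2 and accD. They were not the same set as the 7 called with equal expected variance. There rpl36 was not called (adjusted p = 0.0602), while ycf3 was (adjusted p = 0.0351).

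**Figure D1:**
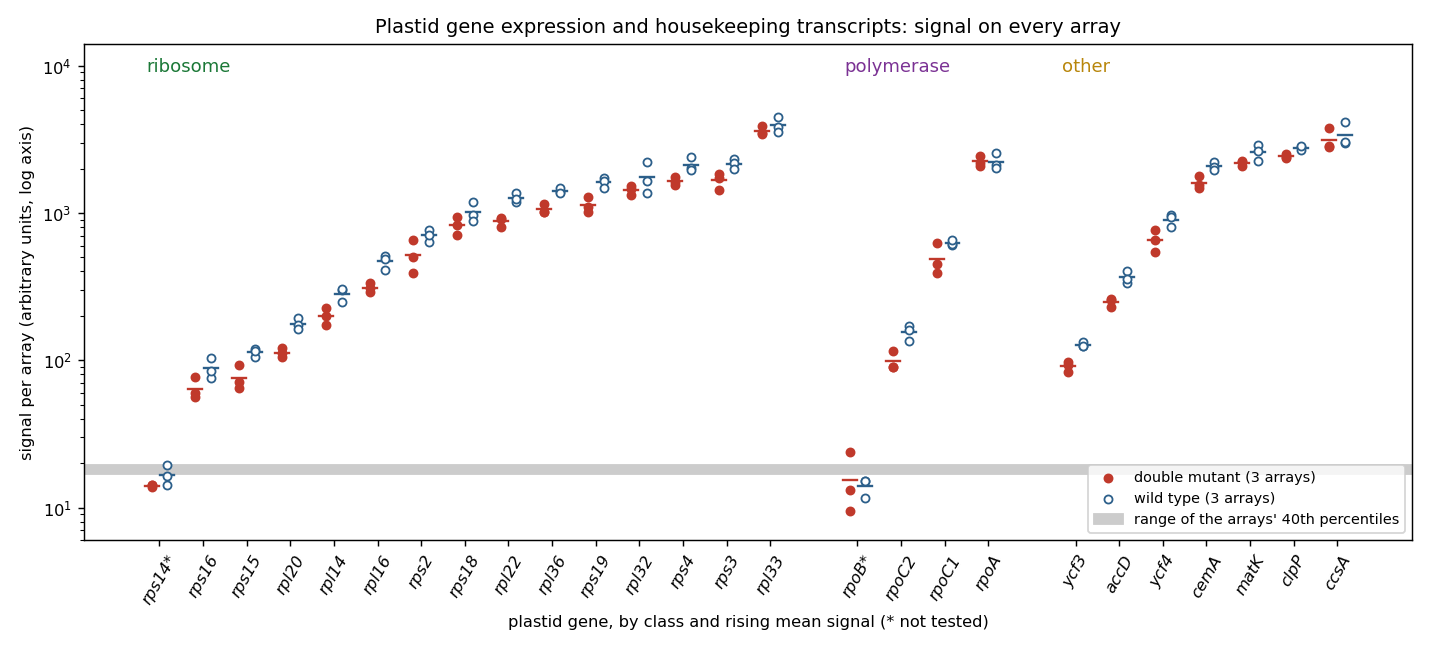
Signal of the 26 plastid probe sets on every array, on a log axis, by class and rising mean signal, with the double mutant (filled) left of the wild type (open) for each gene and horizontal lines at the group means (n = 3 each). The mutant points lie below the wild-type points for most genes above the grey band of the arrays' 40th percentiles, while 9 tested genes overlap (rpl32, rpl33, rps2, rps16, rps18, rpoA, rpoC1, matK and ccsA).

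The 2 untested members were at the bottom of the range in both genotypes. The polymerase subunit gene rpoB had 13.2, 23.7 and 9.46 in the double mutant, against 15.2, 11.6 and 15.1 in the wild type. The ribosomal protein gene rps14 had 14.3, 13.8 and 14.2 in the double mutant, against 16.5, 14.2 and 19.5 in the wild type. Each reached its array's 40th percentile, which lay between 16.9 and 19.4, on 1 of 6 arrays, so no fold is given. The remaining 24 members were above this limit on all 6 arrays, so none of them entered the test through 1 genotype alone.

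Ribosomal protein transcripts made up the largest class. Of 14 tested, 9 fell, 0 rose and 5 did not pass, with a median log2 change of −0.47 and all 14 changes negative. Of all tested probe sets 5.55% fell and 54.1% had a negative change. For the large subunit 5 of 7 fell (median −0.51), and for the small subunit 4 of 7 (median −0.46).

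The lowest large-subunit transcript relative to the wild type was rpl20, for protein L20. It had 105, 121 and 111 in the double mutant, against 193, 173 and 163 in the wild type. Every mutant array was well below every wild-type array, at 63.8% of the wild-type level (adjusted p = 0.00153). Protein L16 lies close to the peptidyl transferase centre of bacterial-type ribosomes, and its gene rpl16 had 334, 289 and 310 in the double mutant, against 412, 512 and 488 in the wild type. Its level was 66.2% of the wild type (95% interval 57.0 to 76.8, adjusted p = 0.00156). For rpl22 the signals were 915, 927 and 807 in the double mutant, against 1190, 1363 and 1243 in the wild type. The mutant arrays again formed a lower group without overlap, at 69.8% of the wild-type level (adjusted p = 0.00142), the smallest adjusted p of all members.

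Also lower were rpl14 and rpl36. The rpl14 signals were 225, 174 and 199 in the double mutant, against 299, 303 and 247 in the wild type, or 70.4% (adjusted p = 0.0120). Those of rpl36 were 1151, 1007 and 1010 in the double mutant, against 1381, 1485 and 1358 in the wild type, or 74.9% (adjusted p = 0.00478). Both genes had mutant arrays entirely below the wild-type arrays. Leaving out wild-type replicate 1 or 2 ended the call of rpl14 (adjusted p = 0.0527 and 0.0587). The last large-subunit transcripts did not pass. In rpl32, wild-type replicate 1 stood high at 2212 with the other wild-type arrays at 1637 and 1369, while the mutant arrays had 1518, 1329 and 1461 (adjusted p = 0.296). The rpl33 signals were 3881, 3472 and 3443 in the double mutant, against 4498, 3849 and 3554 in the wild type (adjusted p = 0.436). For this gene the 95% interval of the level ran from 78.9% to 105% of the wild type.

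Among small-subunit genes, rps19 had 1272, 1091 and 1019 in the double mutant, against 1731, 1649 and 1483 in the wild type. That is 69.4% of the wild-type level with no overlap (95% interval 60.2 to 80.0, adjusted p = 0.00273). The dim transcript rps15 had 93.0, 71.0 and 64.7 in the double mutant, against 120, 105 and 116 in the wild type, or 66.5% (adjusted p = 0.0165). Smaller falls were measured for rps3, at 76.6%, and rps4, at 77.7%. Protein S4 starts assembly of the small subunit in bacteria, and rps4 had 1765, 1626 and 1538 in the double mutant, against 2411, 2002 and 1949 in the wild type (adjusted p = 0.0237). For rps3 the signals were 1730, 1423 and 1837 in the double mutant, against 2330, 2175 and 1982 in the wild type (adjusted p = 0.0259). These 3 calls were less stable than those of rps19. Without 1 array the adjusted p rose to at most 0.0741 for rps15 (ended by wild-type replicates 1 and 3 and mutant replicates 2 and 3), 0.102 for rps3 (wild-type 1 and 2, mutant 2) and 0.0877 for rps4 (wild-type 1, mutant 2 and 3).

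The other small-subunit genes, rps2, rps16 and rps18, had mutant means below the wild-type means but overlapping arrays. The rps2 signals were 651, 389 and 504 in the double mutant, against 769, 639 and 706 in the wild type (adjusted p = 0.0523). Mutant replicate 1 alone reached the wild-type range, and without it the adjusted p was 0.00291. Without any other single array the adjusted p of rps2 was 0.0667 to 0.178. This gene passed after quantile normalization (0.0479), with an offset of 16 (0.0463) and with the replicate number as a block (0.00520). Also for rps16 it was mutant replicate 1, with 76.6, that met the wild-type arrays (104, 76.3 and 84.8). The other mutant arrays had 56.1 and 60.1 (adjusted p = 0.0818). For rps16 the adjusted p was 0.0304 without mutant replicate 1 and 0.0737 to 0.281 without any other single array. With the replicate number as a block it was 0.0282. The rps18 signals were 938, 708 and 830 in the double mutant, against 1190, 964 and 880 in the wild type (adjusted p = 0.159). With the replicate number as a block rps18 passed (adjusted p = 0.0350).

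**Figure D2:**
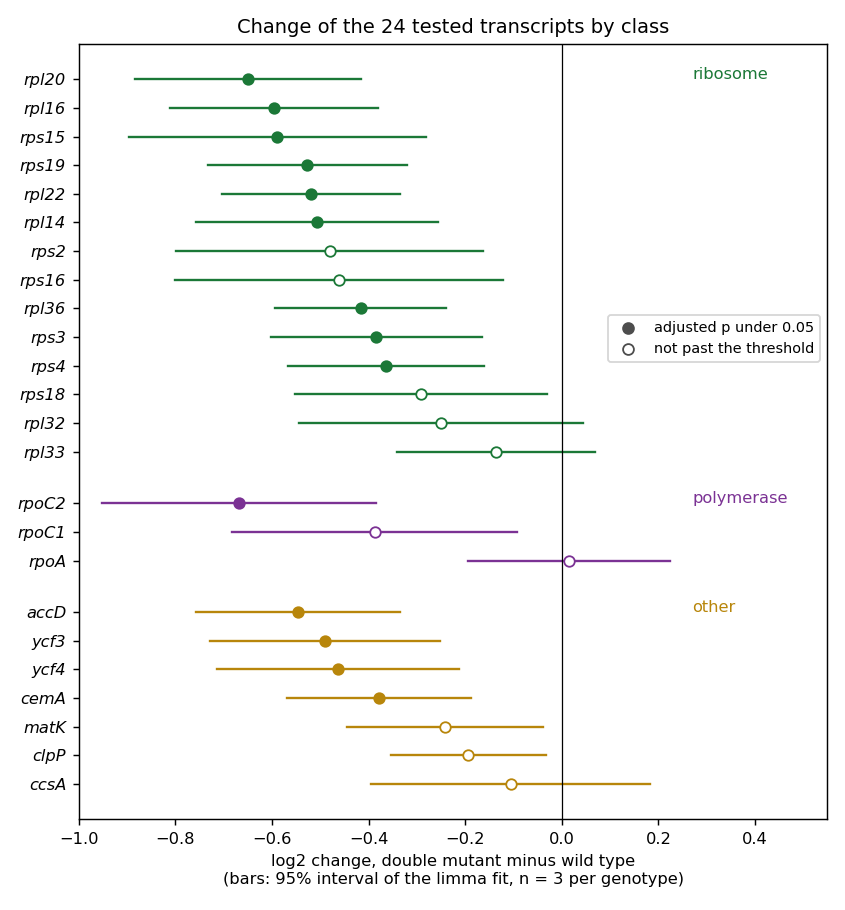
Log2 change of each tested plastid transcript, double mutant minus wild type, with 95% intervals of the limma fit (n = 3 per genotype), by class; filled points passed an adjusted p of 0.05. All filled points lie left of 0, from −0.36 (rps4) to −0.67 (rpoC2), and rpoA lies at 0.01.

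Of 3 tested polymerase subunits, 1 fell, 0 rose and 2 did not pass, where 5.55% of all tested probe sets fell. The β″ subunit gene rpoC2 had 115, 90.1 and 89.4 in the double mutant, against 170, 161 and 136 in the wild type. With no overlap, its level was 62.9% of the wild type (95% interval 51.7 to 76.6, adjusted p = 0.00468), the lowest of all members. For the β′ subunit gene rpoC1 the signals were 624, 388 and 447 in the double mutant, against 606, 615 and 650 in the wild type (adjusted p = 0.0939). Here mutant replicate 1 lay inside the wild-type range and the other mutant arrays far below it. Without mutant replicate 1 the adjusted p was 0.00167, but without any other single array it was 0.164 to 0.297. The α subunit gene rpoA had 2193, 2089 and 2439 in the double mutant, against 2541, 2100 and 2031 in the wild type. The genotypes overlapped fully, at 101% of the wild-type level (95% interval 87.4 to 117, adjusted p = 0.951), and the sign of the change turned when wild-type replicate 2 or 3 or mutant replicate 3 was left out.

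Among the 7 genes of other function, 4 fell, 0 rose and 3 did not pass, where 5.55% of all tested probe sets fell. Their median log2 change was −0.38. The gene accD encodes the plastid-made carboxyltransferase subunit of acetyl-CoA carboxylase, the enzyme that starts fatty acid synthesis. It had 260, 258 and 231 in the double mutant, against 406, 335 and 354 in the wild type. The mutant arrays lay close together below all wild-type arrays, at 68.5% of the wild-type level (95% interval 59.2 to 79.3, adjusted p = 0.00256).

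Both assembly factors of photosystem I encoded here fell. For ycf3 the signals were 97.5, 82.6 and 92.5 in the double mutant, against 125, 132 and 125 in the wild type, or 71.2% (adjusted p = 0.0113). For ycf4 they were 764, 546 and 656 in the double mutant, against 965, 930 and 798 in the wild type, or 72.5% (adjusted p = 0.0201). The envelope membrane protein gene cemA had 1772, 1478 and 1541 in the double mutant, against 2226, 2037 and 1956 in the wild type, or 76.9% (adjusted p = 0.0135). In all 3 genes the genotypes did not overlap. The call of ycf3 was lost on leaving out wild-type replicate 2 (adjusted p = 0.0544) and that of cemA on leaving out wild-type replicate 1 (0.0521) or mutant replicate 2 (0.0628). That of ycf4 was lost without wild-type replicate 1 (0.0820) or 2 (0.0769) or mutant replicate 2 (0.0762) or 3 (0.0525).

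The remaining genes of this class, which had bright probe sets, did not pass. For clpP, the plastid-encoded proteolytic subunit of the Clp protease, the signals were 2522, 2347 and 2383 in the double mutant, against 2813, 2654 and 2824 in the wild type. The arrays of the genotypes did not overlap, but the difference was small, at 87.5% of the wild-type level (95% interval 78.3 to 97.7, adjusted p = 0.125). The intron maturase gene matK had 2199, 2247 and 2085 in the double mutant, against 2893, 2626 and 2241 in the wild type (84.6%, adjusted p = 0.132). Without wild-type replicate 3, after quantile normalization or with the replicate number as a block it passed (adjusted p = 0.0417, 0.0354 and 0.0432). Without any other single array its adjusted p was 0.179 to 0.358. For ccsA, which acts in attaching haem to c-type cytochromes, replicate 1 of each genotype stood high. It had 3741, 2837 and 2808 in the double mutant, against 4119, 2978 and 3028 in the wild type (adjusted p = 0.698), and its change turned to 0.05 on the log2 scale without wild-type replicate 1.

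The array-to-array differences were shared by many members. Mutant replicate 1 was the highest mutant array for 19 of 24 members, and wild-type replicate 1 the highest wild-type array for 17. Averaged over the 24 members, the deviation from each probe set's own mean over 6 arrays was −0.05, −0.31 and −0.24 on the log2 scale in mutant replicates 1 to 3, against 0.31, 0.18 and 0.11 in wild-type replicates 1 to 3. Mutant replicate 1 reached into the wild-type range in 8 members and mutant replicate 2 or 3 in 3. The photosynthesis, NDH and rbcL probe sets of the plastid had the same order of arrays, with −0.04, −0.22 and −0.19 in the double mutant, against 0.32, 0.10 and 0.04 in the wild type.

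Control probe sets differed between arrays as well. The ratio of the 3′ to the 5′ signal of actin was 3.57 to 4.02 in the double mutant, against 3.17 to 3.52 in the wild type. That of ubiquitin went the other way, with 1.36 to 1.39 in the double mutant, against 1.43 to 1.56 in the wild type, and that of GAPDH overlapped, with 0.955 to 1.03 in the double mutant and 0.947 to 1.10 in the wild type. The signal for 25S ribosomal RNA was 698, 692 and 181 in the double mutant, against 617, 458 and 559 in the wild type, with mutant replicate 3 far below the other arrays. What part RNA quality or labelling had in the plastid signals was not tested.

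**Figure D3:**
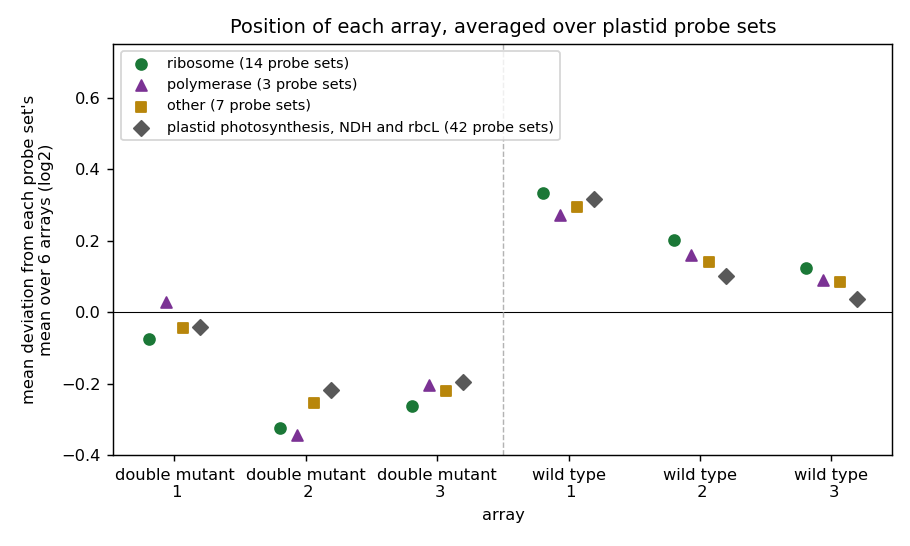
Mean deviation on the log2 scale of each array from the mean over 6 arrays, averaged over the tested probe sets of each class, with the double mutant arrays on the left. Mutant arrays lie below wild-type arrays in every class, mutant replicate 1 is nearest to the wild type, and the photosynthesis probe sets follow the same arrays.

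Among the members the size of the change went with the signal level. Among members with a mean signal of 100 to 1000, 7 of 10 fell, with a median log2 change of −0.50, where 8.71% of all tested probe sets in that range fell. Of members above 1000, 6 of 12 fell (median −0.31), against 9.28% of all tested probe sets there. Only 2 tested members lay below 100, rps15 and rps16, and 1 of them fell, against 2.96% of all tested probe sets. Across the 24 members Spearman's rho of log2 change with mean signal was 0.81, so that brighter probe sets had changes nearer to 0. Across 42 photosynthesis, NDH and rbcL probe sets of the plastid it was 0.61, and across all 13848 tested probe sets −0.04. The change entered with its sign, and only 54.1% of all tested probe sets had a negative change. The last value therefore does not show whether the size of the change went with signal outside the plastid genes. These points share the same 6 arrays and are given as a description. The change and the level were measured on the same signals.

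**Figure D4:**
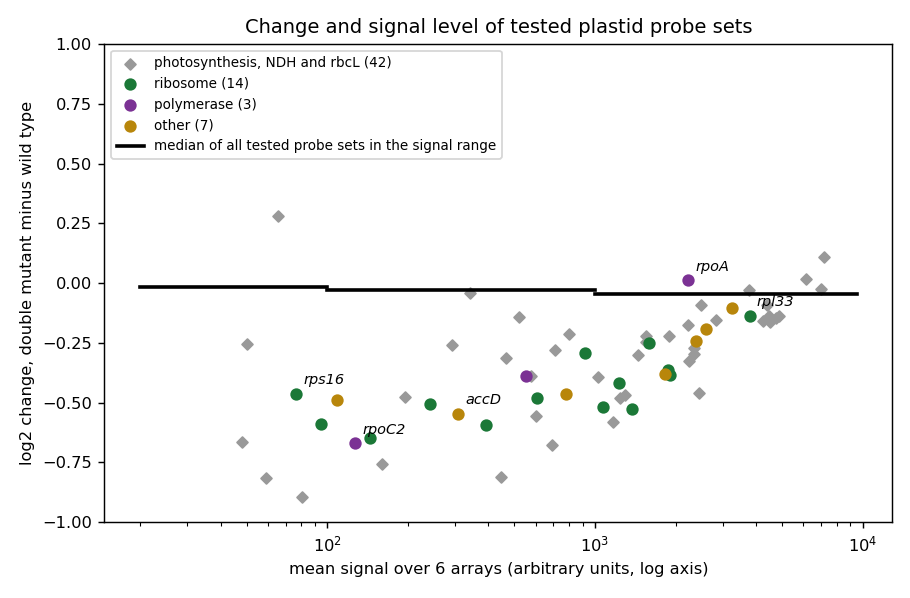
Log2 change, double mutant minus wild type, against the mean signal over 6 arrays on a log axis for the tested plastid probe sets, with black lines for the median of all tested probe sets in each signal range. The members run from about −0.67 (rpoC2) at low signal to 0.01 (rpoA) at high signal, and the photosynthesis probe sets (grey) spread along the same course.

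Plastid genes for photosynthesis, the NDH complex and rbcL were also lower, with a smaller median. Of 42 tested, 16 fell and 0 rose, where 5.55% of all tested probe sets fell. Their median log2 change was −0.26, against −0.44 for the 24 members. By signal level, the members' median was −0.53 up to 100 (n = 2), −0.50 between 100 and 1000 (n = 10) and −0.31 above 1000 (n = 12). That of the photosynthesis, NDH and rbcL genes was −0.66 (n = 5), −0.35 (n = 12) and −0.17 (n = 25) in the same ranges, so the order of both groups turned round in the lowest range. The mean deviation of the members minus that of the photosynthesis probe sets was −0.0095, −0.089 and −0.049 in mutant replicates 1 to 3, against −0.0013, 0.077 and 0.072 in wild-type replicates 1 to 3. When each array was instead centred on the photosynthesis probe sets, which removes what both plastid groups share and shifts every change upward by 0.30, the members' median was −0.14, 0 of 24 fell and rpoA alone rose (adjusted p = 0.0333).

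Neighbouring genes were compared by their order on the plastid genome, since neighbours are often transcribed together. The order used position alone and not the strand. Whether the neighbours compared here share a transcript was not checked. In the cluster around rpl16 all 6 tested members for ribosomal proteins fell, where 5.55% of all tested probe sets fell. The log2 changes of these members lay between −0.38 and −0.60. Their order was rpl36, rpl14, rpl16, rps3, rpl22 and rps19. If these genes share an RNA, the calls are not separate results, and those of rpl14 and rps3 depended on single arrays. In the same cluster, on the rpl36 side, lies rpoA, which did not fall. On the rps19 side follow rpl2 and rpl23, which are not members because their probe sets name both copies of the gene. Of these, rpl23 fell (adjusted p = 0.0312), but rpl2 was not called (log2 change −0.043, adjusted p = 0.824). The log2 signal of rpoA minus that of rpl36 was 0.93, 1.05 and 1.27 in the double mutant, against 0.88, 0.50 and 0.58 in the wild type. The difference between the genotypes was 0.43, with no overlap, and an exact permutation test gave p = 0.1, two-sided, the smallest p that 3 against 3 arrays allow.

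For rpl33, rps18 and rpl20, which follow each other in position, the log2 changes were −0.14, −0.29 and −0.65. As the strand was not considered, these genes are not taken to be transcribed together. The log2 signal of rpl20 minus that of rpl33 was −5.21, −4.84 and −4.95 in the double mutant, against −4.54, −4.48 and −4.45 in the wild type, a difference of −0.51 (exact permutation p = 0.1). Next to each other on the genome as well, rpoC2 and rpoC1 differed by −2.44, −2.11 and −2.32 in the double mutant, against −1.83, −1.93 and −2.26 in the wild type, a difference of −0.28 (exact permutation p = 0.2). These 3 pairs were chosen after their values were seen, and 3 against 3 arrays cannot give a p below 0.1. The tests therefore cannot decide whether neighbours differ, and the values are a description. Adjusted over the 3 pairs, the p-values were 0.15, 0.15 and 0.2, which does not cover the neighbours they were picked from.

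**Figure D5:**
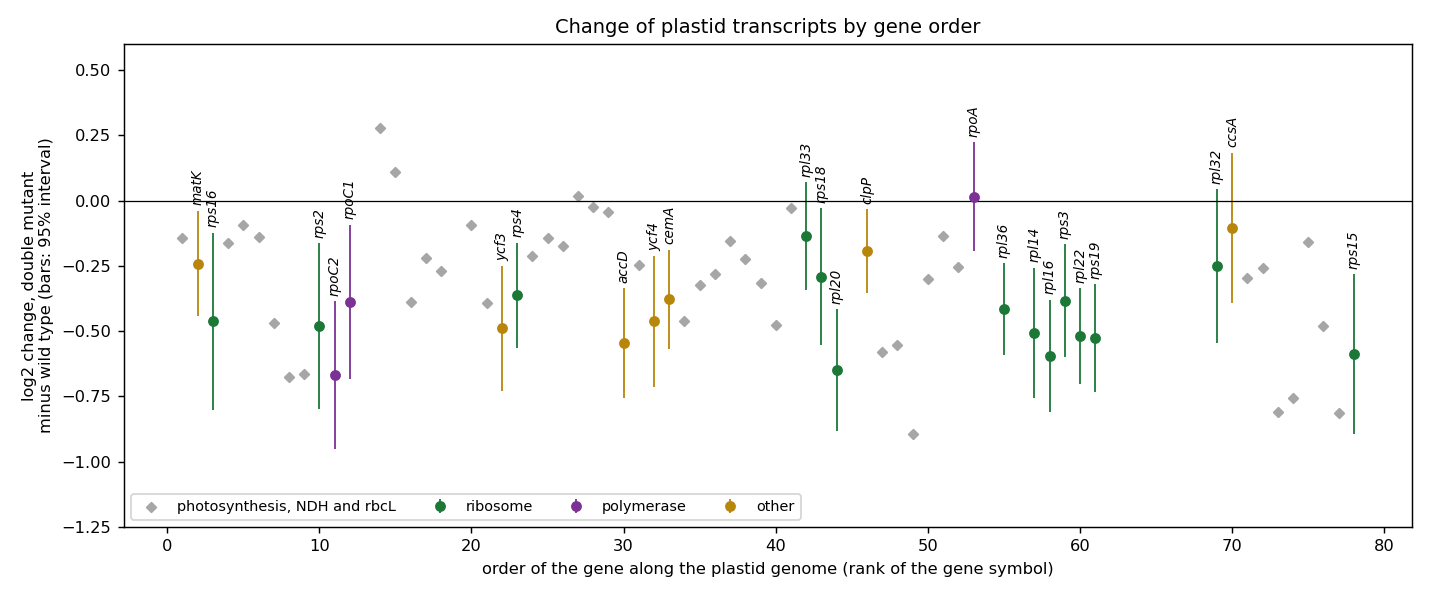
Log2 change, double mutant minus wild type, with 95% intervals for the tested members and grey points for photosynthesis, NDH and rbcL genes, by the order of the gene along the plastid genome. The cluster from rpl36 to rps19 lies between −0.38 and −0.60, with rpoA at 0.01 to its left, and rpl20 lies below its neighbours rpl33 and rps18.

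Genes of the plastid's inverted repeat are read by probe sets that name both copies and so lie outside the members. Leaving out ndhB, there were 7 such probe sets for rps12, rpl2, rpl23, rps7, ycf1 and ycf2. Of these 6 were tested and 4 fell, where 5.55% of all tested probe sets fell. The signals of rps7 were 1793, 1705 and 1599 in the double mutant, against 2330, 2194 and 2143 in the wild type (adjusted p = 0.00521). A probe set of rps12 (adjusted p = 0.0185), rpl23 (0.0312) and ycf1 (0.0443) also fell, while the other rps12 probe set was not called (0.183). With a bright probe set, rpl2 had 4916, 4725 and 4328 in the double mutant, against 5204, 4838 and 4364 in the wild type (adjusted p = 0.824). That of ycf2 was under the limit for testing.

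Few nuclear genes for the same machinery had a named probe set. Of 33 nuclear-encoded plastid ribosomal proteins, 8 were tested, 1 fell and 0 rose, where 5.55% of all tested probe sets fell. All 8 changes were negative, against 54.1% of all tested probe sets, and the median log2 change was −0.19. These 8 had mean signals of 307 to 2501. Of all tested probe sets with signals of 100 to 1000, 8.71% fell and 55.7% were negative. Above 1000 the shares were 9.28% and 61.9%. PRPS6 (AT1G64510) fell, with 889, 921 and 845 in the double mutant, against 1112, 1107 and 1045 in the wild type, or 81.4% (adjusted p = 0.0218). The brightest probe sets of the list, PRPL3 (AT2G43030) and PRPL17 (AT3G54210), were not called, at 93.1% and 84.4% of the wild-type level (adjusted p = 0.456 and 0.0537).

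Of 14 nuclear-encoded Clp subunits, 5 were tested and 0 called, where 11.3% of all tested probe sets were called. Their median log2 change was −0.13. With so few tested genes, 0 calls does not set this list apart from all tested probe sets. The brightest, CLPP4 and CLPS1, had 746 ± 19.1 and 757 ± 19.6 in the double mutant, against 861 ± 33.9 and 828 ± 58.9 in the wild type (SD, n = 3 each). Among partners of the ycf and ccsA products 2 of 12 were tested and 0 called, against the same share of 11.3%, and the same limit holds. CCDA, a thylakoid protein of cytochrome maturation, had 232 ± 14.6 in the double mutant, against 241 ± 18.5 in the wild type (adjusted p = 0.799). CCS1, which works with the ccsA product, had 184 ± 36.1 in the double mutant, against 191 ± 15.5 in the wild type (adjusted p = 0.815). The splicing factor CAF1 was the 1 tested gene of 19 for plastid RNA processing, with 51.6 ± 0.381 in the double mutant, against 54.3 ± 5.93 in the wild type (adjusted p = 0.832). No sigma factor, PEP-associated protein or nuclear acetyl-CoA carboxylase subunit on the lists was tested here, and the polymerase RPOTmp lay under the limit for testing.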

How the data were processed

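The authors deposited MAS5-type intensities on a linear scale for every probe set of the 6 arrays. The tools MAS5 and GCOS are named, without versions, per the submitters' processing notes, and in the deposited table the mean of each array without the top and bottom 2% was 100.01. Scaling of this kind assumes equal total signal in both genotypes. The 64 control probe sets were left out. Probe sets with signals at or above the 40th percentile of the array on 3 or more arrays were tested, 13848 in all. Log2 values without an offset entered a linear model with genotype as its only factor, in limma 3.58.1 under R 4.3.3, whose eBayes step used a variance trend. Every adjusted p is two-sided and Benjamini-Hochberg adjusted over all tested probe sets, with a threshold of 0.05. The fit was tested on simulated data with independent noise for each probe set. That simulation had no shifts shared by plastid probe sets, so it does not cover them. Percentages of the wild-type level are 2 to the power of the fitted change. No list was tested as a list. The arrays' number, 3 per genotype, limits the precision.

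Probe sets were named through the platform annotation and a gene table of TAIR10.1: 13513 named 1 gene, of which 13436 matched, 503 several and 8730 none. No probe set matched a mitochondrial locus tag. No coordinates or sequences are given. All members are named, and of the nuclear lists the called genes and the 2 brightest. Members and lists were chosen with earlier results of these data known. Alternatives were no variance trend, a robust prior, quantile normalization, centring on the array median or on plastid photosynthesis probe sets, no filter, an offset of 16, a replicate block and leaving out each array.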

Additional observations from a re-analysis of the deposited data

How the results depend on the processing

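All alternatives were planned. The 14 members called, all lower, became 7 without a variance trend (4 of the ribosomal class and 2 of the other class) and 8 to 17 when 1 array was left out (ribosomal class 5 to 11, polymerase 1 to 2, other 2 to 5), with 0 higher in each. Centred on plastid photosynthesis probe sets, 1 member was called, 0 lower in any class and 1 higher. By construction this removes what plastid transcripts share: the members' median log2 change was −0.14 and that of the photosynthesis probe sets 0.047, and signs turned for rpl32 (0.053), rpl33 (0.17), rps18 (0.012), ccsA (0.20), clpP (0.11) and matK (0.061). Under the scaling as deposited, leaving out 1 array gave medians of −0.54 to −0.35 for the members and −0.30 to −0.20 for the photosynthesis probe sets, while rpoA ran from −0.048 to 0.11 and ccsA from −0.24 to 0.046. The 16 photosynthesis probe sets that fell became 2 without a trend, 3 when centred on themselves and 4 to 19 when 1 array was left out. Over all tested probe sets, 1571 calls (769 lower, 802 higher) became 880 (373, 507) without a trend, 2809 (142, 2667) under plastid centring and 1029 to 1585 (444 to 794, 526 to 791) when 1 array was left out. The cause of the drops without a trend was not tested. With the replicate number as a block 18 members were called, with rps2, rps16, rps18 and matK added. Over all tested probe sets, same-numbered arrays correlated in their deviations at 0.08, 0.08 and 0.11. Each array correlated best with its own number, but weakly, and this comes from the data and not from the design. Replicate 1 was the highest array of its genotype for 19 of 24 members in the double mutant and 17 in the wild type. Members share the shifts of their arrays, so these are not separate counts. Replicates 2 and 3 had opposite orders: the members' mean deviations were −0.31 and −0.24 in the double mutant, against 0.18 and 0.11 in the wild type. The labels do not say that a number marks a shared batch, and this was not tested. The other settings gave 12 to 16 members. Dim probe sets, rpoB and rps14, were too close to the limit to show a change.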
